A study of Mus musculus with 6 samples.

Results

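Chemokines are small secreted proteins that guide leukocytes along gradients, and they are grouped as CC, CXC, CX3C or XC by the spacing of the cysteines near their amino terminus. Their receptors are G protein-coupled and sit mainly on leukocytes, while atypical receptors bind and remove chemokines without signalling through G proteins. In the injured kidney, tubular and stromal cells are known as sources of chemokines that draw in monocytes and neutrophils. The genes described here are all those whose symbol begins with Ccl, Cxcl, Ccr, Cxcr or Ackr followed by a number, together with Cx3cl1, Cx3cr1, Xcl1 and Xcr1, read from probe sets that the platform annotation assigns to exactly 1 symbol. They numbered 56 of the 22180 genes tested, 34 ligands (19 CC, 13 CXC, 1 CX3C and 1 XC) and 22 receptors (10 CC, 6 CXC, 1 CX3C, 1 XC and 4 atypical).

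Kidney RNA was compared between 3 Cre-positive and 3 Cre-negative samples of untreated mice aged 4 weeks, each on 1 Affymetrix whole-transcript array. The labels name a conditional knockout line of Pals1, encoded by Mpp5, on a C56Bl/6 background and Six2-Cre transgenic mice on a mixed background, without the number of conditional alleles in either group. Pals1 is a scaffold of the apical Crumbs polarity complex, and the Six2 promoter drives Cre in nephron progenitors, so that collecting duct, leukocytes, vessels and stroma were not targeted. Whether every sample is a separate mouse is not given in the labels, so p-values cover only the variation among these samples, some of which may be technical. Levels are log2 values after RMA, and differences are Cre-positive minus Cre-negative on that scale, ± SE from limma with n = 3 per group, with p adjusted over all 22180 genes.

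Array medians lay between 5.55 and 5.64. Mpp5 was lower in Cre-positive arrays (-0.61 ± 0.09, adjusted p = 0.00232), and none of 9 kidney epithelial markers was dim, by the measure defined below. Xist lay between 4.00 and 4.29 in all Cre-positive arrays and in Cre-negative replicate 3, while the other 2 Cre-negative arrays had 10.76 and 10.70, so the 3 Cre-positive arrays carried male transcripts and only 1 of the 3 Cre-negative arrays did. Adrenal cortex markers averaged 4.27 to 4.49 in all Cre-positive arrays and in Cre-negative replicates 1 and 3, and 10.41 in Cre-negative replicate 2, and skeletal muscle markers averaged 8.05 in Cre-positive replicate 2 and 5.20 to 5.41 in the other arrays. The counts of called members are given again below with sex as a second factor and without those 2 arrays.

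Chemokine ligands were called higher in Cre-positive kidneys more often than all genes, and their receptors at about the share of all genes. At limma adjusted p under 0.05, 11 of 34 ligands (32.4%) and 2 of 22 receptors (9.09%) rose, where 10.7% of all tested genes rose. No ligand or receptor fell, where 11.1% of all genes did, and at an unadjusted p under 0.05 there were 24 higher members and 1 lower one, Cxcr5, beside 16.5% and 17.0% of all genes. The median difference was 0.66 over ligands and 0.06 over receptors, beside -0.01 over all tested genes. Differences above 0 were found for 28 ligands (82.4%) and 19 receptors (86.4%), beside 10628 of all 22180 genes. All 3 Cre-positive values lay above all 3 Cre-negative values for 17 ligands and 7 receptors, together 42.9% of the members, where 18.6% of all genes showed this, and the reverse held for 1 member, where 19.9% of all genes showed it. The exact permutation test of 3 against 3 arrays cannot give a p below 0.10 for any of them.

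**Figure D1:**
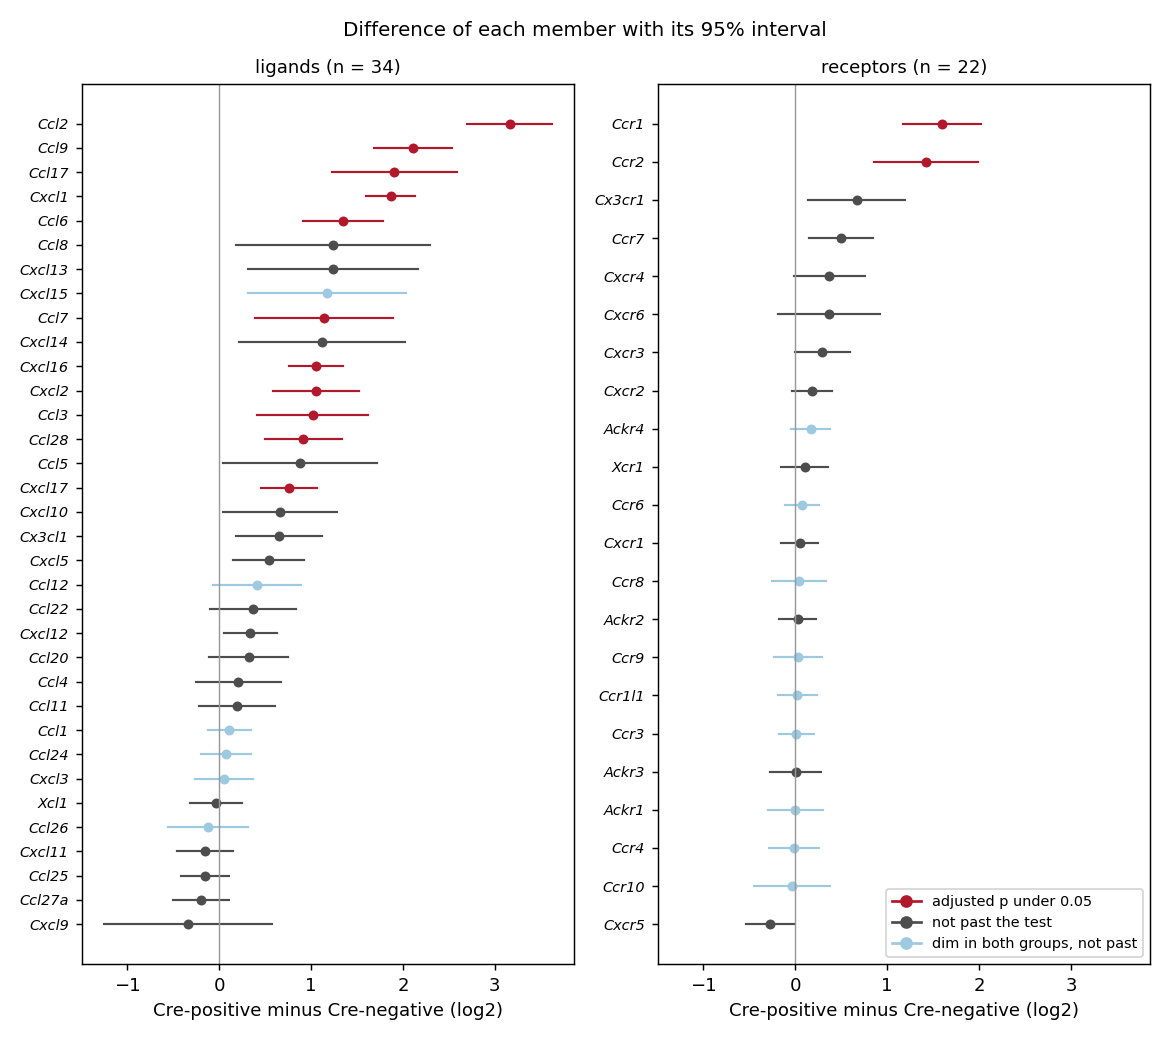
Difference of each of the 34 ligands (left) and 22 receptors (right), Cre-positive minus Cre-negative in log2 units, with 95% intervals from limma (n = 3 arrays per group); red marks limma adjusted p under 0.05 and light blue marks members dim in both groups. The ligands run from -0.34 for Cxcl9 to 3.16 for Ccl2, and only Ccr1 and Ccr2 among the receptors are red.

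Not every member could be read well. A member was called dim where both group means lay below 5.15, the 95th percentile of the level of 1390 olfactory and vomeronasal receptor genes. By this measure 6 of 34 ligands and 9 of 22 receptors were dim, and none of these 15 passed the test. Differences of dim probe sets are compressed by background signal in RMA values. Leaving the dim members out, 11 of 28 ligands and 2 of 13 receptors were called, with medians of 0.82 and 0.29. As a member high in 1 group is kept by that filter, these values describe the members left and support nothing. Over all genes 7025 of 22180 were dim and held only 219 of the 4844 calls. Genes that are not dim were thus called more often, and the share of all genes given above is no measure for these counts. The difference between ligands and receptors was not tested.

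Among CC ligands that attract monocytes, Ccl2 and Ccl9 showed the 2 largest differences of all members. Ccl2, the main ligand of Ccr2 and the signal that draws monocytes out of bone marrow and into tissue, stood at 8.49, 9.33 and 9.16 in Cre-positive arrays, against 5.81, 5.84 and 5.85 in Cre-negative arrays. The Cre-negative values lay within 0.05 of each other and far below every Cre-positive value, and the fold was 8.93 (95% interval 6.49 to 12.3; 3.16 ± 0.20, adjusted p = 9.15e-05). Ccl7, a second Ccr2 ligand encoded beside Ccl2, had 6.06, 6.69 and 7.57 in Cre-positive arrays, against 5.58, 5.60 and 5.71 in Cre-negative arrays (1.14 ± 0.32, adjusted p = 0.0412). The Ccl7 groups did not overlap, but replicate 1 of the Cre-positive arrays lay only slightly above the highest Cre-negative one. Ccl12, the other mouse ligand of Ccr2, was dim and did not pass (0.41 ± 0.21, adjusted p = 0.215).

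Ligands of Ccr1, a receptor of monocytes and neutrophils, rose as well. Ccl9, a rodent chemokine of macrophages, was at 7.80, 8.25 and 8.56 in Cre-positive arrays, against 5.93, 6.20 and 6.15 in Cre-negative arrays, a 4.32-fold difference (2.11 ± 0.18, adjusted p = 3.00e-04). Its rodent neighbour Ccl6 had 7.12, 7.67 and 7.90 in Cre-positive arrays, against 6.24, 6.09 and 6.32 in Cre-negative arrays (1.35 ± 0.19, adjusted p = 0.00207). In both genes the Cre-positive group lay wholly above the other, with replicate 1 lowest among its arrays. Ccl3, macrophage inflammatory protein 1 alpha, had 5.76, 6.44 and 6.93 in Cre-positive arrays, against 5.38, 5.46 and 5.21 in Cre-negative arrays (1.02 ± 0.26, adjusted p = 0.0271). Ccl4, its close relative, did not pass (0.21 ± 0.20, 95% interval -0.26 to 0.67), and its groups overlapped throughout.

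The calls of Ccl7 and Ccl3 were the least secure of the 13. With sex as a second factor their adjusted p was 0.251 and 0.121, and both calls were also lost on leaving out any 1 Cre-negative array, or Cre-positive replicate 2. Those of Ccl2 and Ccl9 held under all 17 alternatives tried.

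Ccl5 and Ccl8 were high on 2 of the 3 Cre-positive arrays and did not pass. Ccl5, an attractant of T cells and monocytes, was at 7.88, 9.32 and 9.39 in Cre-positive arrays, against 7.94, 7.90 and 8.10 in Cre-negative arrays (0.88 ± 0.36, adjusted p = 0.131). Ccl8, which in mice acts through Ccr8, was at 4.94, 5.92 and 6.97 in Cre-positive arrays, against 5.04, 4.28 and 4.79 in Cre-negative arrays (1.24 ± 0.46, adjusted p = 0.0944). Cre-positive replicate 1 lay inside the range of the Cre-negative arrays for Ccl8 and below it for Ccl5. All Cre-negative values of Ccl8 lay below 5.15, the limit for dim genes, so its difference may be understated. The eosinophil attractants Ccl11 (0.20 ± 0.18) and Ccl24 (0.08 ± 0.12) did not pass, and Ccl24 was dim. In all, 5 of the 11 inflammatory CC ligands rose and 0 fell, where 10.7% and 11.1% of all genes did. Their list median was 1.02.

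Among the other CC ligands, Ccl17 and Ccl28 rose. Ccl17, a Ccr4 ligand made by dendritic cells and macrophages, had 6.05, 6.81 and 7.38 in Cre-positive arrays, against 4.66, 5.0 and 4.86 in Cre-negative arrays, a 3.74-fold difference with a wide 95% interval of 2.33 to 6.00 (1.90 ± 0.29, adjusted p = 0.00329). All its Cre-negative values lay below 5.15, the limit for dim genes, so this fold may be understated. Ccl22, the second Ccr4 ligand and a close genomic neighbour of Ccl17, did not pass (0.37 ± 0.20, adjusted p = 0.251). The Ccl22 means, 5.26 in Cre-positive and 4.89 in Cre-negative arrays, lay near or below the same limit, so its difference may be understated too. Ccl28, an epithelial chemokine of mucosal surfaces, had 7.13, 6.56 and 6.99 in Cre-positive arrays, against 5.71, 6.23 and 6.00 in Cre-negative arrays (0.92 ± 0.18, adjusted p = 0.00921). Unlike most called members it was highest in replicate 1 of the Cre-positive arrays, and its call was lost with the sex term (adjusted p = 0.0941). Ccl20 (0.32 ± 0.19), Ccl25 (-0.15 ± 0.11), Ccl27a (-0.20 ± 0.13), Ccl1 (0.11 ± 0.10) and Ccl26 (-0.12 ± 0.19) did not pass. Of these, Ccl1 and Ccl26 were dim. The Ccl20 means, 5.26 in Cre-positive and 4.93 in Cre-negative arrays, lay near or below 5.15, so its difference may be understated. Ccl27a was the only member with more than 1 probe set of its own, and its other probe set differed by -0.10.

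**Figure D2:**
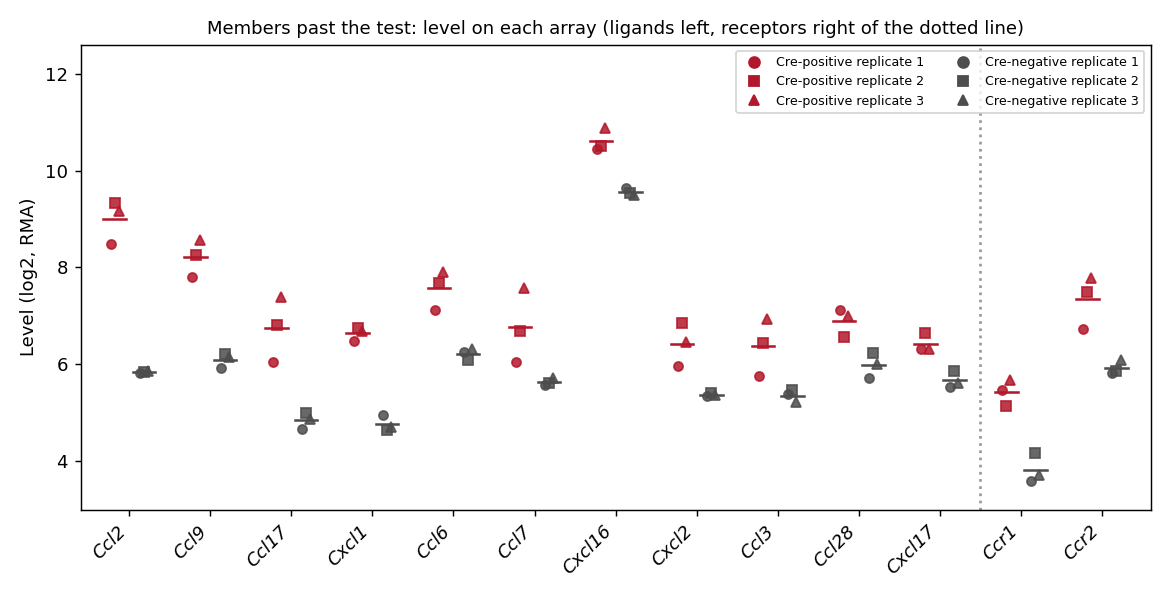
Log2 level on each array of the 11 ligands and 2 receptors past limma's test, Cre-positive in red and Cre-negative in grey, with a symbol per replicate and a bar at each group mean (n = 3). No red point lies at or below a grey point of the same gene. The red circle, replicate 1, is the lowest red point in 11 of the 13 genes, beside 7216 of all 22180 genes.

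In the CXC family, 2 of 5 ligands listed under Cxcr2 rose, with a list median of 1.05, and 0 of 3 ligands of Cxcr3 did. The list of 5 includes Cxcl15, which is not set beside Cxcr2 in the pairs further below. Over all genes 10.7% rose. Cxcl1, which attracts neutrophils through Cxcr2, was at 6.48, 6.74 and 6.69 in Cre-positive arrays, against 4.95, 4.65 and 4.71 in Cre-negative arrays, and the fold was 3.65 (95% interval 3.03 to 4.39; 1.87 ± 0.12, adjusted p = 8.51e-05). Its Cre-positive values spread little (SD 0.14), and replicate 1 was close to the others. Its Cre-negative mean lay below 5.15, the limit for dim genes, so the fold may be understated. Cxcl2, encoded next to Cxcl1, had 5.95, 6.86 and 6.46 in Cre-positive arrays, against 5.34, 5.42 and 5.36 in Cre-negative arrays (1.05 ± 0.20, adjusted p = 0.00854; 0.0820 with the sex term). Cxcl5, made by epithelium, had 4.90, 5.52 and 5.29 in Cre-positive arrays, against 4.88, 4.56 and 4.65 in Cre-negative arrays, and stood just outside the threshold (0.54 ± 0.17, adjusted p = 0.0537). The Cxcl5 means, 5.24 in Cre-positive and 4.70 in Cre-negative arrays, lay near or below 5.15, so its difference may be understated. Cxcl3 was dim on every array, between 2.66 and 3.14. Cxcl15, a mouse chemokine known from lung, was at 5.07, 3.87 and 5.58 in Cre-positive arrays, against 3.67, 3.70 and 3.64 in Cre-negative arrays (1.17 ± 0.37, adjusted p = 0.0585), so that replicates 1 and 3 stood well above all Cre-negative values and replicate 2 slightly above them. It was dim by its group means.

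The promoters of Cxcl1, Cxcl2 and Cxcl3 share a sequence known as a binding site of NF-kappaB, the transcription factor through which inflammatory signals induce many chemokines. They are shown because these 3 genes carry the same letters there and had unlike differences on the arrays, with Cxcl3 dim, and because Cxcl10, whose window holds more matches, did not pass the test. Each window runs from 250 bases before to 50 bases after the RefSeq transcript start in GRCm38.p6 and is printed 5′ to 3′ on the gene's strand, with matches to the NF-kappaB consensus on either strand in capitals. Cxcl1 lies at chr5:90890995-90891294, plus strand, Cxcl2 at chr5:90903649-90903948, plus strand, Cxcl3 at chr5:90785851-90786150, plus strand, Ccl9 at chr11:83578587-83578886, minus strand and Cxcl10 at chr5:92348840-92349139, minus strand.
Cxcl1: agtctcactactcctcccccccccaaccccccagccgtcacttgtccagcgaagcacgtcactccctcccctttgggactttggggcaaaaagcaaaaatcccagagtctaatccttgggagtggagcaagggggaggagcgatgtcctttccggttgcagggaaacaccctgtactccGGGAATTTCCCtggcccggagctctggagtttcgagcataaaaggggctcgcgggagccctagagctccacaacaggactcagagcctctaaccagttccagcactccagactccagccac
Cxcl2: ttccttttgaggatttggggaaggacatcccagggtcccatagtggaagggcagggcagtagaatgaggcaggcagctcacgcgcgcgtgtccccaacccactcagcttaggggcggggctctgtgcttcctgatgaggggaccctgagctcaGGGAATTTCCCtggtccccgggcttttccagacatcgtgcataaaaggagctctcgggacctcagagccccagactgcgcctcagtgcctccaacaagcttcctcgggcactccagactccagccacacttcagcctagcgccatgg
Cxcl3: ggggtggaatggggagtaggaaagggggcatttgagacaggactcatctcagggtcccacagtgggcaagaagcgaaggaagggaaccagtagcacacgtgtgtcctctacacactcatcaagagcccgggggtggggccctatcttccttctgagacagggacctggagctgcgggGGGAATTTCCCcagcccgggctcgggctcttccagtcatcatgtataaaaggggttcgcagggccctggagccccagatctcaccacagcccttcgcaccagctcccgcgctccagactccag
Ccl9: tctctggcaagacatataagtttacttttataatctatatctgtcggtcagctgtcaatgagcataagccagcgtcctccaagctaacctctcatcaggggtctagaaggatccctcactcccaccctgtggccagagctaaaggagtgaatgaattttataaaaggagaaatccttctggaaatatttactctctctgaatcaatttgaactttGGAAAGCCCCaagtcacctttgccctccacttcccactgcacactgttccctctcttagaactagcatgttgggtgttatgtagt
Cxcl10: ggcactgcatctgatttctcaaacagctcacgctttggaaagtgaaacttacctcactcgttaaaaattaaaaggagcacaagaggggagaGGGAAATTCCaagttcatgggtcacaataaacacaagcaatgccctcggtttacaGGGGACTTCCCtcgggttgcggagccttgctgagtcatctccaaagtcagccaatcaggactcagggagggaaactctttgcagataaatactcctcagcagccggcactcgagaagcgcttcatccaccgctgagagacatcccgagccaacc
Counted from the transcript start, GGGAATTTCC began at -71 in Cxcl1, -97 in Cxcl2 and -73 in Cxcl3, each with an overlapping match on the other strand at the next base. Windows were at hand for 42 of the 56 members, of which 12 (28.6%) held the NF-kappaB consensus, compared with 9.55% of 27025 genes. Among members with a window, 4 of 9 that rose held it (Ccl9, Ccr1, Cxcl1 and Cxcl2), as did 8 of 33 that did not pass. Ccl2, Ccl7, Cxcl16 and Cxcl17 also rose but had no window, so their promoters were not searched. A match is a description of these letters, and binding was not measured.

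The interferon-inducible Cxcr3 ligands, which recruit T and NK cells, gave no calls. Cxcl9 was at 6.63, 8.33 and 7.70 in Cre-positive arrays, against 7.60, 8.32 and 7.75 in Cre-negative arrays (-0.34 ± 0.39, 95% interval -1.25 to 0.58), a wide interval that leaves both directions possible. Cxcl10 was at 6.43, 7.57 and 7.17 in Cre-positive arrays, against 6.29, 6.67 and 6.23 in Cre-negative arrays (0.66 ± 0.27, adjusted p = 0.127). Both genes were lowest in replicate 1 of the Cre-positive arrays and varied within the groups. Cxcl11 did not pass (-0.15 ± 0.13, 95% interval -0.45 to 0.15). Its means, 5.11 in Cre-positive and 5.26 in Cre-negative arrays, lay near 5.15, the limit for dim genes, so a difference may be understated.

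Cxcl16, a membrane-bound ligand of Cxcr6 that is shed from epithelium and macrophages, also rose. Its levels were 10.45, 10.51 and 10.88 in Cre-positive arrays, against 9.64, 9.53 and 9.50 in Cre-negative arrays, a 2.08-fold difference (1.06 ± 0.13, adjusted p = 0.00106) that held under all 17 alternatives. Cxcl17, a chemokine of mucosal epithelium, had 6.31, 6.65 and 6.31 in Cre-positive arrays, against 5.53, 5.86 and 5.61 in Cre-negative arrays (0.76 ± 0.13, adjusted p = 0.00521). Replicate 2 was the highest array of its own group for Cxcl17 on both sides, and the groups did not overlap.

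The homeostatic CXC ligands had groups that did not overlap and did not pass. Cxcl12, the stromal ligand of Cxcr4, was at 9.79, 9.99 and 10.25 in Cre-positive arrays, against 9.68, 9.74 and 9.60 in Cre-negative arrays (0.34 ± 0.12, adjusted p = 0.0954). Cxcl13, which attracts B cells to follicles, was at 6.73, 6.72 and 8.37 in Cre-positive arrays, against 6.03, 6.08 and 6.01 in Cre-negative arrays (1.24 ± 0.40, adjusted p = 0.0629). Cxcl14, made by epithelium and fibroblasts, was at 9.45, 10.28 and 11.27 in Cre-positive arrays, against 9.06, 9.33 and 9.25 in Cre-negative arrays (1.12 ± 0.39, adjusted p = 0.0791). For Cxcl13 and Cxcl14 replicate 3 stood well above the other Cre-positive arrays, which widened their errors.

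Cx3cl1, or fractalkine, is tethered to endothelium and epithelium and holds monocytes and macrophages through Cx3cr1. The ligand was at 8.99, 9.58 and 9.88 in Cre-positive arrays, against 8.86, 8.83 and 8.81 in Cre-negative arrays (0.65 ± 0.20, adjusted p = 0.0548). Its receptor was at 7.94, 8.57 and 8.96 in Cre-positive arrays, against 7.83, 7.86 and 7.77 in Cre-negative arrays (0.67 ± 0.23, adjusted p = 0.0742). Neither passed, and in both the Cre-negative arrays agreed within 0.10 while the Cre-positive ones spread over about 1 unit. Xcl1, a lymphocyte chemokine (-0.03 ± 0.12), and its receptor Xcr1, a mark of cross-presenting dendritic cells (0.10 ± 0.11), did not pass. The group means of Xcl1 and Xcr1 lay between 5.10 and 5.22, near 5.15, the limit for dim genes, so differences may be understated.

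Of the 18 G protein-coupled receptors, Ccr1 and Ccr2 rose, where 10.7% of all genes did. Ccr1 was at 5.46, 5.13 and 5.67 in Cre-positive arrays, against 3.60, 4.17 and 3.71 in Cre-negative arrays, a 3.02-fold difference (1.60 ± 0.18, adjusted p = 9.59e-04). Its Cre-negative mean lay below the limit for dim genes, so this fold may be understated. Ccr2, which marks inflammatory monocytes, was at 6.74, 7.50 and 7.79 in Cre-positive arrays, against 5.82, 5.85 and 6.08 in Cre-negative arrays, a 2.68-fold difference (1.42 ± 0.24, adjusted p = 0.00527). Both receptors had groups well apart, yet the call of Ccr2 was lost with the sex term (adjusted p = 0.0796), while that of Ccr1 was kept (adjusted p = 0.0131). In bulk kidney RNA, more cells that carry a receptor and more receptor RNA per cell cannot be told apart.

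Receptors of lymphocytes and dendritic cells did not pass. Ccr7, which leads dendritic and T cells to lymph nodes, was nearest to the threshold, at 6.45, 6.81 and 6.82 in Cre-positive arrays, against 6.42, 5.95 and 6.21 in Cre-negative arrays (0.50 ± 0.15, adjusted p = 0.0515). Cxcr3 (0.29 ± 0.13, adjusted p = 0.153), Cxcr4 (0.37 ± 0.17, adjusted p = 0.168) and Cxcr6 (0.37 ± 0.24, adjusted p = 0.337) had positive differences with overlapping groups. The Cxcr6 means, 5.27 in Cre-positive and 4.90 in Cre-negative arrays, lay near or below 5.15, so its difference may be understated. Cxcr5, the receptor for Cxcl13 on B cells, was the only member whose Cre-positive values all lay below the Cre-negative ones, by a small margin, at 5.08, 5.45 and 5.27 against 5.64, 5.46 and 5.53 (-0.28 ± 0.11, adjusted p = 0.130). The neutrophil receptor Cxcr2 was at 5.61, 5.64 and 5.76 in Cre-positive arrays, against 5.61, 5.49 and 5.38 in Cre-negative arrays (0.18 ± 0.09, 95% interval -0.04 to 0.40). Cxcr1 differed by 0.05 ± 0.09. Ccr3, Ccr4, Ccr6, Ccr8, Ccr9, Ccr10 and Ccr1l1 were dim in both groups, with differences between -0.03 and 0.08.

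The 4 atypical receptors, which clear chemokines, showed differences of 0.00 to 0.17 and none passed. Ackr3, which takes up Cxcl12, was at 7.62, 7.80 and 8.04 in Cre-positive arrays, against 7.90, 7.83 and 7.73 in Cre-negative arrays (0.00 ± 0.12, 95% interval -0.28 to 0.28). Ackr2, a scavenger of inflammatory CC chemokines, differed by 0.03 ± 0.09 (95% interval -0.17 to 0.23). Ackr4, which clears ligands of Ccr7, and Ackr1, which binds chemokines on red cells and venules, were dim (0.17 ± 0.09 and 0.00 ± 0.13).

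Set beside each other, a receptor and at least 1 of its ligands both passed the test on some axes and not on others. A member that did not pass is not thereby shown to be unchanged. On the Ccr2 axis the receptor and 2 of its 3 measured ligands rose. On the Ccr1 axis the receptor rose with Ccl3, Ccl6 and Ccl9, while Ccl5, also set beside it, did not pass. For Cxcr2, Cxcr6, Ccr4 and Ccr10 at least 1 ligand rose while the receptor did not pass, and Ccr4 and Ccr10 were dim. For Cxcr3, Cxcr4, Cx3cr1, Cxcr5, Ccr8 and Xcr1 neither side passed. These values stand side by side, and the difference between a ligand and its receptor was not tested.

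**Figure D3:**
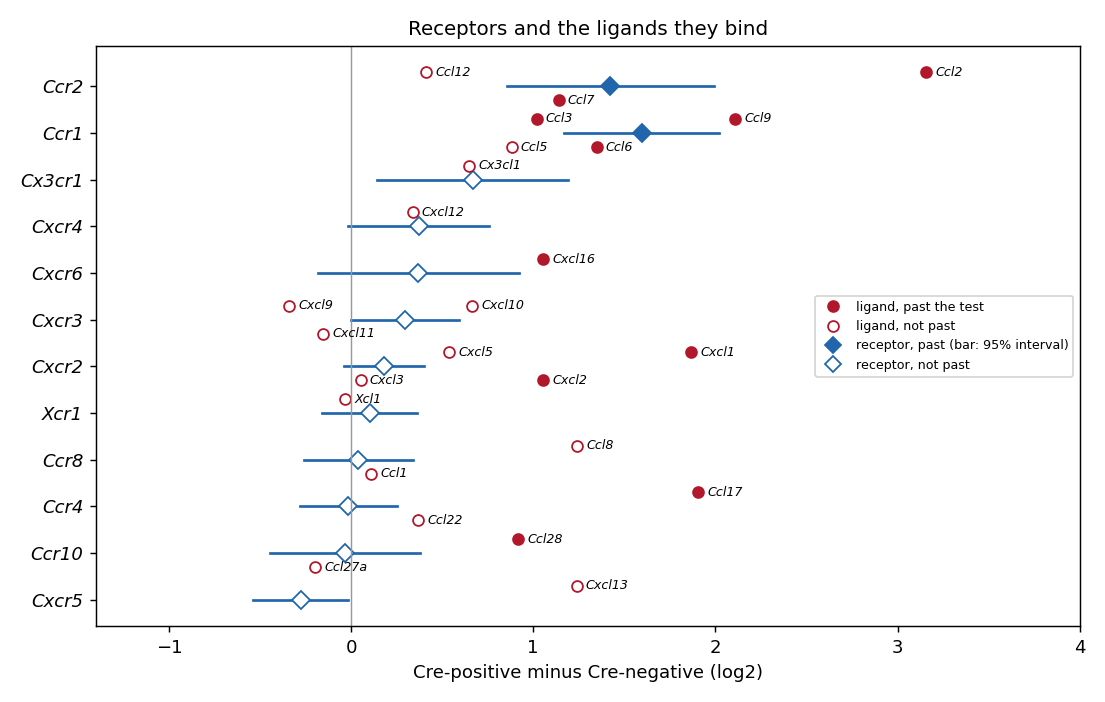
Difference of each receptor (blue diamond with its 95% interval) and of the ligands it binds (red circles), Cre-positive minus Cre-negative in log2 units; filled symbols passed limma's test at adjusted p under 0.05. Filled diamonds appear for Ccr2 and Ccr1, while Cxcl1, Cxcl16, Ccl17 and Ccl28 are filled beside open receptors.

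Chemokine genes lie in clusters, and within a cluster the calls were mixed. Over all genes 10.7% rose. In the RefSeq gene order Ccl2, Ccl7, Ccl11, Ccl12, Ccl8 and Ccl1 are neighbours with at most 3 other genes between each and the next, and 2 of these 6 rose, with differences from 0.11 to 3.16. The row of Ccl5, Ccl9, Ccl6, Ccl3 and Ccl4 held 3 of 5 that rose, from 0.21 to 2.11. Of the neighbours Cxcl5, Cxcl3, Cxcl15, Cxcl1 and Cxcl2, 2 of 5 rose, and of Ccl22, Cx3cl1 and Ccl17 only Ccl17. The receptor row of Ccr9, Cxcr6, Xcr1, Ccr1, Ccr1l1, Ccr3 and Ccr2 held both receptors that rose, with the other 5 between 0.01 and 0.37.

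Genes that carry the chemokine signal inside cells were raised too. Of 18 measured signalling genes 11 rose and 1 fell, with a median of 0.66, where 10.7% and 11.1% of all genes rose and fell. The rises included Vav1 (1.42 ± 0.22), Rac2 (1.0 ± 0.25) and Dock2 (0.98 ± 0.22), which link receptors to the actin cytoskeleton of blood cells, Pik3cg (0.90 ± 0.21) and its regulatory subunit Pik3r5 (0.85 ± 0.13), and Rgs16 (1.97 ± 0.22), which shuts G protein signals off. Arrb2, an arrestin that desensitises the receptors, rose (1.35 ± 0.12), while the related Arrb1 did not pass (0.09 ± 0.08). The kinase Ptk2b fell (-0.40 ± 0.08). With the sex term 4 of these 12 calls held, as did 1922 of the 4844 calls over all genes. Outside the cells, Dpp4, a brush border peptidase that trims and inactivates chemokines, fell (-0.70 ± 0.13), and Sdc1, a proteoglycan that binds them, rose (0.95 ± 0.12). Among relatives outside the naming rule, Cmklr1, the receptor for chemerin, rose (0.70 ± 0.16), Ccrl2 fell (-0.91 ± 0.15), while the platelet chemokines Pf4 (0.65 ± 0.38) and Ppbp (-0.24 ± 0.13) did not pass. Of these calls that of Sdc1 held with the sex term, and those of Dpp4, Cmklr1 and Ccrl2 did not (adjusted p = 0.103, 0.102 and 0.0699).

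Inducers of chemokine genes were raised in the same arrays. Of 21 measured genes of NF-kappaB, cytokine and interferon signalling, 13 rose and 0 fell, where 10.7% and 11.1% of all genes did. Their median was 0.69. With the sex term 10 of the 13 calls held, as did 1922 of the 4844 calls over all genes. Nfkbiz, a nuclear partner of NF-kappaB, was at 8.28, 8.47 and 8.30 in Cre-positive arrays, against 6.59, 6.62 and 6.60 in Cre-negative arrays (1.75 ± 0.09, adjusted p = 4.19e-05), with almost no spread in either group. The NF-kappaB feedback genes Tnfaip3 (1.35 ± 0.10) and Nfkbia (0.72 ± 0.12), the subunits Nfkb2 (1.05 ± 0.12), Rela (0.95 ± 0.10) and Relb (0.67 ± 0.12), and Tnf (0.71 ± 0.11) rose. Ifng, which induces the Cxcr3 ligands, did not pass (0.08 ± 0.08, 95% interval -0.11 to 0.28), nor did Il1b (0.39 ± 0.32), although the interferon gamma receptor Ifngr1 (1.09 ± 0.09) and Irf1 (0.69 ± 0.12) rose. The Ifng means, 5.21 in Cre-positive and 5.12 in Cre-negative arrays, lay near 5.15, the limit for dim genes. The Il1b means, 5.36 in Cre-positive and 4.96 in Cre-negative arrays, lay on either side of it. A difference in Ifng or Il1b may thus be missed or understated here.

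Monocyte and macrophage markers moved with the chemokine genes, and their part in the differences was not tested. Of 12 such markers 10 rose and 0 fell, where 10.7% of all genes rose and 11.1% fell. Of the 10 calls 6 held with the sex term, as did 1922 of the 4844 calls over all genes. The mean level of these markers was 8.21, 8.65 and 9.11 in Cre-positive arrays, against 7.03 to 7.12 in Cre-negative arrays. They included the endotoxin co-receptor Cd14 (2.56 ± 0.12), the integrin Itgam (2.40 ± 0.23) and Cd68 (2.13 ± 0.21), while Csf1r (0.31 ± 0.25) and Ly6c2 (0.13 ± 0.10) did not pass. Neutrophil markers averaged 4.38 to 4.47 in Cre-positive arrays and 4.37 to 4.43 in Cre-negative arrays. Of 9 neutrophil genes 1, Csf3r, rose (0.81 ± 0.11), and 6 were dim, among them the granule genes S100a8 and S100a9 (0.04 ± 0.16 and 0.01 ± 0.10). Of 7 T cell markers none passed limma's test, with 2 higher at an unadjusted p under 0.05, and their mean was 5.31, 6.05 and 6.24 in Cre-positive arrays, against 5.56 to 5.69 in Cre-negative arrays. The 5 NK cell and 3 B cell markers gave no calls, with 1 and 2 lower at an unadjusted p under 0.05. At that unadjusted p 16.5% of all genes were higher and 17.0% lower. Of 4 dendritic cell markers 2 rose, Itgax (1.09 ± 0.25) and Cd209a (0.53 ± 0.11), and neither call held with the sex term. Endothelial markers fell in 3 of 5 cases and fibroblast markers rose in 3 of 5, with 1 call of each list held with that term. Of 9 kidney epithelial markers 6 fell and 1 rose, and 5 of these 7 calls held.

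**Figure D4:**
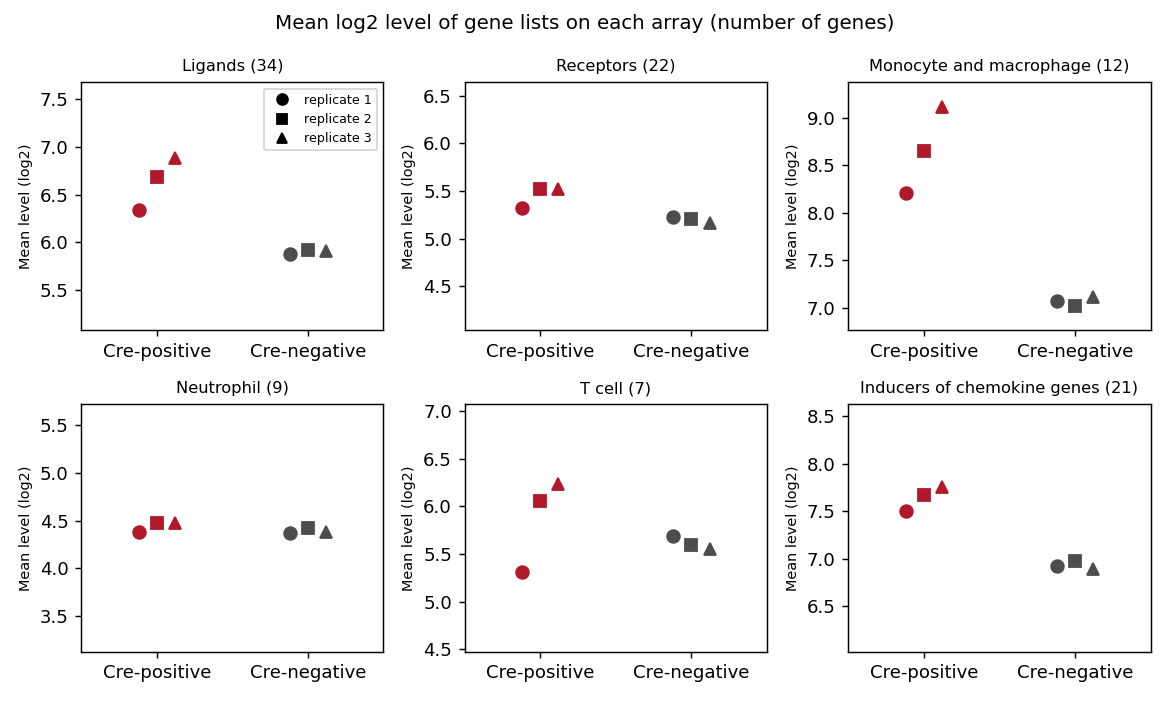
Mean log2 level on each array over the genes of 6 lists (number of genes in brackets), Cre-positive in red and Cre-negative in grey, with a symbol per replicate; all panels span the same range of log2 units. The Cre-positive arrays lie above the others for ligands, receptors, monocyte and macrophage markers and inducers, with replicate 1 lowest of its group in each. For receptors the gap is small, at 5.32 to 5.52 against 5.16 to 5.23. The T cell means of the groups overlap, and the neutrophil means of both groups lie between 4.37 and 4.47.

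Replicate 1 stood nearest to the Cre-negative arrays within its group. The median difference of the ligands from the Cre-negative mean was 0.25 in Cre-positive replicate 1, 0.68 in replicate 2 and 0.82 in replicate 3. Replicate 1 was the lowest Cre-positive array for 22 of 34 ligands, beside 7216 of all 22180 genes. Without it limma called 20 ligands and 5 receptors higher, where 10.1% of all genes were, and the 12 added members included Cx3cl1, Cx3cr1, Cxcl10, Cxcl13, Cxcl14, Ccl5, Ccl8 and Ccr7. The 13 calls made on all arrays were kept in that fit.

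With sex as a second factor, 7 ligands and 1 receptor remained higher and none was lower, where 4.1% of all genes were higher and 5.05% lower. The 7 ligands were Ccl2, Ccl9, Ccl17, Ccl6, Cxcl1, Cxcl16 and Cxcl17, and the receptor was Ccr1. As sex varied only among the Cre-negative arrays, this fit sets the 3 Cre-positive arrays against the single male Cre-negative one with a larger SE, and the estimates of the 13 called members ran from 0.82 for Cxcl17 to 3.14 for Ccl2. With replicate 2 of both groups left out, 10 ligands and 1 receptor were higher, where 3.96% of all genes were. Ccl3, Ccl7 and Ccr2 were lost there and Cxcl15 was added. With the male arrays alone, 4 ligands and 1 receptor were higher, where 2.3% of all genes were. Array weights gave 4 receptors higher (12.1% of all genes), a filter at the median level 7 ligands (21.0% of the genes left), and a replicate block 11 ligands and 2 receptors (8.78%). Leaving out another single array gave 9 to 12 ligands and 2 or 3 receptors, where 7.75% and 10.2% of all genes were higher without Cre-positive replicates 2 and 3, and 6.68%, 7.25% and 7.23% without Cre-negative replicates 1, 2 and 3.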

How the data were processed

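Kidney RNA of 6 samples was measured on Affymetrix whole-transcript arrays, 1 for each sample, as the labels' protocols describe. The values deposited by the authors are log2 signals after RMA, which corrects background, quantile-normalizes and summarises probe sets; per the submitters' processing notes the tools were RMA and Partek, with no version. The log2 scale is inferred from what RMA gives and from the values, 1.89 to 13.59. The genome build behind the probe sets is not given in the sources used here. No scanner file or scan date was used, so background correction and batches could not be examined, and the number of arrays limits the precision. There were 0 columns of other samples.

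Of 41345 rows, 23521 had exactly 1 symbol in the platform annotation, 1814 had several and 16010 had none. Where a gene had several rows, that of the highest average signal was kept, which gave 22180 genes. A further 33 rows that list a chemokine symbol beside other symbols were left out. All 56 members matched a RefSeq gene (GRCm38.p6) by Entrez ID. The comparison used lmFit and eBayes of limma 3.58.1 (R 4.3.3), two-sided and without covariate or filter, with Benjamini-Hochberg adjustment over all genes and a threshold of 0.05, and the fit was tested on simulated data. Sex was read from Xist against Y-linked genes. Members, lists and alternatives were chosen with earlier results of these data known. Members past the threshold, the 2 with the smallest p among the rest of each class and the 1 with the highest mean were named by rule, and other members so that each is accounted for. Promoters came from RefSeq (GRCm38.p6); tables were made in Python 3.11.15 (pandas 2.3.3) and figures with matplotlib 3.10.9.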

Additional observations from a re-analysis of the deposited data

How the results depend on the processing

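Alternatives were another normalization or centring, a filter, other variance models and weights, other rows for a gene, the replicate block, sex, and leaving out arrays. For the 29 members named by rule, 428 of 476 values kept their side of the threshold, 28 lost a call, 20 gained one and 0 changed sign with a call, while differences near 0 that did not pass, such as those of Ackr2, Ackr3 and Xcl1, changed sign under some alternatives. Calls of Ccl2, Ccl9, Cxcl1, Cxcl16 and Ccr1 held wherever these genes were tested. With the sex term 7 ligands and 1 receptor were higher and the receptor median was 0.14; with male arrays alone, 3 against 1 and the lone array assumed to vary like the others, there were 4 ligands and 1 receptor and the same median of 0.14. Without genes below the median level, 15 ligands and 5 receptors were left to test, 7 ligands were higher, and the medians were 0.88 and 0.50. Array weights gave 4 receptors, and median centring a receptor median of 0.0014 with all genes at -0.07. Without both arrays of replicate 2, 1 receptor was higher. Over all genes, limma called 4844 in the main comparison, 2030 with the sex term, 1101 with male arrays alone, 1853 without both arrays of replicate 2 and 3141 without Cre-negative replicate 1. Leaving out 1 array at a time gave 9 to 20 ligands and 2 to 5 receptors higher; the highest counts, 20 and 5, came without Cre-positive replicate 1. The medians then ran from 0.50 to 0.81 for ligands and from 0.03 to 0.12 for receptors. Same-numbered arrays did not deviate together (correlations of -0.04 to 0.03). With so few arrays, which also differ in sex and in adrenal and muscle signal, this cannot show whether the numbers pair the samples. With the replicate block 11 ligands and 2 receptors were higher and 0 members lower, with all 13 calls kept. Dim probe sets limit what can be said of 15 members.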
